A study of Mus musculus with 24 samples.

Results

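Acute-phase proteins are secreted proteins whose production climbs steeply during inflammation, and the transcripts of 10 of them were followed here in hearts with experimental autoimmune myocarditis (EAM). The 10 are serum amyloid A1, A2 and A3 (Saa1, Saa2, Saa3), lipocalin 2 (Lcn2), haptoglobin (Hp), pentraxin 3 (Ptx3), orosomucoid 1 (Orm1), lipopolysaccharide binding protein (Lbp), leucine-rich alpha-2-glycoprotein 1 (Lrg1) and inter-alpha-trypsin inhibitor heavy chain 4 (Itih4). They were chosen by symbol, and all 10 matched an Ensembl identifier among the 41388 genes of the count table. At D15 every EAM heart held more of each of the 10 transcripts than every control heart did, as was so for 34.6% of the 15693 genes tested. Saa2 had too few reads to be tested on that day, and Saa1 could be tested only through its EAM hearts. Saa3 had the highest fold change, from a mean of 0.98 ± 0.242 CPM, reads scaled to the same library total, in control hearts to 412 ± 95.5 CPM in EAM hearts (SD, n = 4 each). At D10 no member passed the limits, and 0% of the 15029 genes tested did. At D21 Saa3, Lcn2, Hp and Lrg1 passed them, 4 of 7 tested, where 4.30% of the 15266 genes tested were called higher. These D21 calls were lost when certain single hearts were left out.

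A piece of heart from each of 24 male BALB/c (BALB/cAnNCrl) mice, immunized at 8 to 10 weeks of age, was profiled by RNA sequencing. EAM mice received a cardiac myosin heavy chain alpha (MyHC-alpha) peptide in supplemented complete Freund's adjuvant and pertussis toxin. Control mice received PBS in place of the peptide, with the same adjuvant and the same toxin, so every heart came from a mouse given strong innate stimuli. The emulsion, with peptide or PBS, was injected at the start and again a week later, and the toxin was given at the start only. Hearts were taken 10, 15 or 21 days after the first injection (D10, D15, D21), with 4 EAM and 4 control hearts at each. The D10 hearts of both groups thus came only days after a dose of adjuvant. Inflammation may not develop in every immunized mouse, and where possible the study chose hearts in which it was present. The 4 D21 EAM libraries carry a library code that the other 20 do not, so at D21 the effect of EAM and that of the library code cannot be told apart.

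The acute-phase response is best known from the liver, where interleukin 6 acting through STAT3, and interleukin 1 and TNF acting through NF-kB and C/EBP factors, switch hepatocytes to the secretion of defence and transport proteins. Several of these genes are also transcribed outside the liver: Saa3 in macrophages, fibroblasts and adipocytes, Lcn2 in neutrophils and stressed parenchymal cells, and Ptx3 in endothelial cells, fibroblasts and myeloid cells. In bulk tissue, fewer cells of a type and less RNA per cell cannot be told apart, and the cell that carried a transcript was not measured.

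Total counts per library lay between 15814863 and 24980864, with a median of 19469782. Levels are given as CPM after TMM normalization over the 24 hearts. A count of 3 reads, the limit that a count of 0 allows, corresponded to 0.105 to 0.201 CPM on that scale, and such limits and all counting intervals cover counting error only. The 8 cardiomyocyte markers examined for the tissue label summed to between 8401 and 36903 CPM in every heart. Unless stated otherwise, tests are quasi-likelihood tests in edgeR, adjusted by Benjamini-Hochberg over all genes of the fit, a gene is called at an FDR under 0.01 with at least a 2-fold change, and the error of a log2 fold change is its standard error (SE). Nothing in the labels says what a replicate number stands for, so p-values measure the spread between these hearts.

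The 3 serum amyloid A genes lie together on chromosome 7 (GRCm38). Saa3 (ENSMUSG00000040026) lies at chr7:46711998-46715700 and Saa1 (ENSMUSG00000074115) at chr7:46740497-46742980, both on the minus strand. Saa2 (ENSMUSG00000057465) lies at chr7:46751790-46754313 on the plus strand. Saa1 and Saa2 are near copies: 471 of their 75-base exon windows are found in both, 18.5% of those of Saa1 and 17.8% of those of Saa2, so reads from such windows, which map to both, may have been lost to both counts. The other members lie on 6 further chromosomes. Lcn2 (ENSMUSG00000026822) lies at chr2:32384633-32388252 and Lbp (ENSMUSG00000016024) at chr2:158306493-158332852. Hp (ENSMUSG00000031722) lies at chr8:109575128-109579172. Ptx3 (ENSMUSG00000027832) lies at chr3:66219910-66225805, inside Veph1 on the opposite strand, with 0 exon bases in common. Orm1 (ENSMUSG00000039196) lies at chr4:63344560-63348163 and shares 13.8% of its windows with Orm2. Lrg1 (ENSMUSG00000037095) lies at chr17:56119678-56122001 and Itih4 (ENSMUSG00000021922) at chr14:30886476-30902353. Lcn2, Hp, Ptx3, Lbp, Lrg1 and Itih4 share 0 windows with another gene, and Saa3 shares 1.54%.

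The 250 bases upstream of the RefSeq transcription start were read for the 7 members with an entry in the RefSeq promoter table (GRCm38.p6), which were all but Hp, Orm1 and Lbp. The letters TTGCNNAA, a form of the sequence bound by C/EBP factors, occurred on either strand in 5 of the 7 windows and in 9.56% of all 32851 windows of that length. The letters TTCNNNGAA, a form of the STAT sequence, occurred in 1 of 7 (Itih4, whose match is TTCCGAGAA) and in 7.02% of all windows. The NF-kB consensus occurred in 0 of 7 and in 5.93% of all windows. A match describes the letters only, and neither binding nor use of these windows was measured. The 5 windows with the C/EBP letters are shown because they belong to Saa3, Lcn2 and Ptx3, which were among the members with the steepest change in EAM hearts, and to the near copies Saa1 and Saa2. Each reads 5′ to 3′ on the strand of the gene and ends at the base before its RefSeq start, with the match in capitals, and each holds 1 match of the 3 motifs in all. The windows lie at chr7:46715677-46715926, chr2:32387740-32387989, chr3:66219637-66219886, chr7:46742981-46743230 and chr7:46751583-46751832. RefSeq starts and the gene positions given above, from another annotation, do not always meet. The Lcn2 window lies wholly inside the Lcn2 positions, and the Saa3 and Saa2 windows reach into theirs, so these windows are upstream of the RefSeq start only.
Saa3: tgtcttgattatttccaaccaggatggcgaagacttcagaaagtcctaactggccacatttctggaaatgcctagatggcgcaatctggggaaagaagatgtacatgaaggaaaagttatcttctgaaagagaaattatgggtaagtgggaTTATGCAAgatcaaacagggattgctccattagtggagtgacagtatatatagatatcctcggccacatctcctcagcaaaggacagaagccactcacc
Lcn2: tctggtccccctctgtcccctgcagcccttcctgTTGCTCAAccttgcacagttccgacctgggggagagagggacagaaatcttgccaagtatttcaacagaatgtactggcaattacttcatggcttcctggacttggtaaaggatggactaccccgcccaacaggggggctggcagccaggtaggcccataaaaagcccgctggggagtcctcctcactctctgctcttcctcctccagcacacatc
Ptx3: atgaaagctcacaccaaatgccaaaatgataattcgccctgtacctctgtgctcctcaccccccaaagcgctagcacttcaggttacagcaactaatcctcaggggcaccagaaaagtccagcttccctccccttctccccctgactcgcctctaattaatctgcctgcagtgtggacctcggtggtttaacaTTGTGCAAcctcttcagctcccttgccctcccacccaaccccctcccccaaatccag
Saa1: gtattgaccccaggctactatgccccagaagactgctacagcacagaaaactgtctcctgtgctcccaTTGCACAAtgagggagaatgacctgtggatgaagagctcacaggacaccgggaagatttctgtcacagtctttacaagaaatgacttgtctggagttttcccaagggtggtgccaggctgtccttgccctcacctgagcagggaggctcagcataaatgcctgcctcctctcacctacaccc
Saa2: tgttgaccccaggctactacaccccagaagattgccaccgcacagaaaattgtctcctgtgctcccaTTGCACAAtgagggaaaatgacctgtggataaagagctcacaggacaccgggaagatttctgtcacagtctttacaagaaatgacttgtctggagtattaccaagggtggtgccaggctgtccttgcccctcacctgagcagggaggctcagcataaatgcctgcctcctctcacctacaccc
The Saa1 and Saa2 windows were the same at 238 of 249 aligned bases, which was 94.8% of the alignment with its 2 gap positions, and both hold TTGCACAA. The Saa3 window was the same as that of Saa1 at 48.5% and that of Saa2 at 47.8% of the alignment, and its match, TTATGCAA, ends 92 bases before the start. The match in Lcn2 (TTGCTCAA) ends 209 bases and that in Ptx3 (TTGTGCAA) 50 bases before the start.

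In the control hearts at D15 and D21 most of these transcripts were scarce. Levels of different genes were compared per kilobase of merged exon. Lrg1, a plasma glycoprotein that modulates TGF-beta signalling in vessels, led at 44.9 ± 10.7 CPM per kb in D15 control hearts (SD, n = 4), and its lowest heart lay above the highest heart of every other member. Hp, which binds free haemoglobin, followed at 5.41 ± 1.75 CPM per kb and overlapped with Lcn2 at 3.22 ± 1.67 CPM per kb. Lbp, which passes bacterial lipopolysaccharide to CD14, was at 2.47 ± 0.293, Itih4 at 1.33 ± 0.39, Ptx3 at 0.784 ± 0.229 and Orm1 at 0.702 ± 0.322 CPM per kb, with no gap between the ranges of the last 3. Saa3 was only the eighth of the 10 in this order, at 0.376 ± 0.093 CPM per kb. Saa1 and Saa2 stood at the bottom with 0.0328 ± 0.02 and 0.011 ± 0.0127 CPM per kb.

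In D15 EAM hearts the order was different. Hp led with 305 ± 121 CPM per kb, Lcn2 followed with 171 ± 29.5 and Saa3 with 158 ± 36.6, and the ranges of neighbours overlapped down to Lrg1 at 116 ± 32.7 CPM per kb. A gap separated these 4 from Ptx3 at 20.6 ± 10.2 and Lbp at 14 ± 2.93 CPM per kb. Itih4 (5.6 ± 2.36), Orm1 (1.51 ± 0.612), Saa1 (0.492 ± 0.214) and Saa2 (0.352 ± 0.223 CPM per kb) followed in that order, and of these only Saa1 and Saa2 overlapped with each other. Saa3 therefore moved from the eighth to the third place, and Lrg1 from the first to the fourth.

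**Figure D1:**
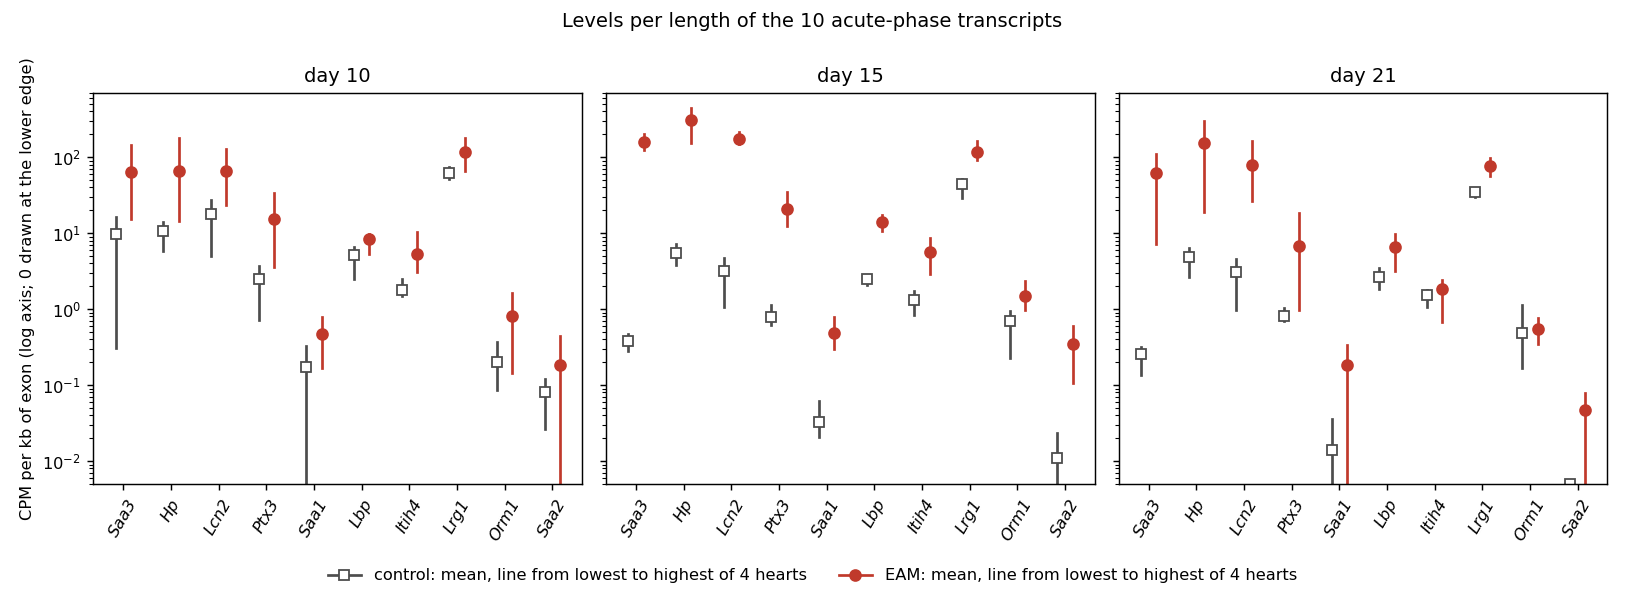
Mean level per kilobase of exon (vertical, logarithmic axis) of each acute-phase transcript in control hearts (open squares) and EAM hearts (filled circles) at D10, D15 and D21, with lines from the lowest to the highest of 4 hearts. Lrg1 was the most abundant member in all 3 control groups, and Hp in D15 and D21 EAM hearts.

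D15 was the comparison in which the members differed most between EAM and control hearts. Of the 10 members 9 had enough reads for the fit, 8 were called higher and none lower, where 18.1% of the 15693 genes tested were called higher. Saa1, one of the 8, entered the fit only through its EAM hearts, so it had to differ to be tested. For all 9 every EAM heart lay above every control heart, which also held for 34.6% of all genes tested.

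Saa3 encodes the serum amyloid A form made mainly outside the liver. At D15 the 4 control hearts held 0.73, 1.12, 1.24 and 0.825 CPM and the 4 EAM hearts 437, 535, 321 and 354 CPM. All EAM hearts thus lay more than 2 orders of magnitude above the controls, whose libraries had 14 to 24 Saa3 reads each. The log2 fold change was 8.74 (SE 0.25, 429-fold, adjusted p = 1.4e-08). Saa1, one of the circulating forms made by the liver, was near the limit of detection, with 0.0521, 0.0591, 0.155 and 0.0589 CPM in control hearts, or 1 to 3 reads. Its EAM hearts held 0.749, 1.93, 1.31 and 0.888 CPM, a log2 fold change of 3.84 (SE 0.50, adjusted p = 5.1e-05). Saa2, its near copy, had too few reads for the fit, with 92 reads in the 4 EAM hearts together and 2 in the control hearts. The ratio of Saa2 levels was 32.6 (95% counting interval 8.77 to 273), and an exact two-sided permutation test of its CPM gave p = 0.0286, the smallest that 4 against 4 hearts allow, or 0.171 adjusted over the 6 such tests made on members with few reads.

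Lcn2 binds bacterial siderophores and so withholds iron from microbes. Its 4 D15 control hearts held 2.81, 12.3, 11.4 and 7.13 CPM and the EAM hearts 448, 559, 389 and 401 CPM. The lowest EAM heart lay far above the highest control heart, and the log2 fold change was 5.78 (SE 0.42, 54.8-fold, adjusted p = 2.8e-06). Hp held 6.51, 10.6, 11.6 and 6.07 CPM in control hearts and 521, 718, 246 and 477 CPM in EAM hearts. EAM replicate 3 had the lowest value of the 4, and the fold change of Hp was close to that of Lcn2, at a log2 value of 5.86 (SE 0.39, 57.9-fold, adjusted p = 1.5e-06).

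Ptx3 is a long pentraxin that recognises microbes and dying cells and activates complement. Its D15 control hearts held 1.67, 1.77, 1.97 and 3 CPM and its EAM hearts 40.5, 33, 94.1 and 53.3 CPM. Here EAM replicate 3 was the highest of the 4, the reverse of its place for Hp, Saa3 and Lcn2. The log2 fold change of Ptx3 was 4.75 (SE 0.37, 26.9-fold, adjusted p = 4.5e-06). Lbp held 9.95, 12.3, 13.3 and 12.1 CPM in control hearts and 83.9, 51, 61.8 and 72.9 CPM in EAM hearts, with little spread in either group. Its log2 fold change was 2.54 (SE 0.16, 5.81-fold, adjusted p = 1.2e-06).

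Lrg1 and Itih4, the members with the highest and a middling control level, changed less. Lrg1 held 40.9, 71.8, 72.9 and 67.1 CPM in control hearts and 143, 151, 231 and 129 CPM in EAM hearts at D15. Its log2 fold change of 1.41 (SE 0.22, adjusted p = 3.3e-04) was the smallest of the 8 called. Itih4, a plasma protein of the inter-alpha-trypsin inhibitor family cleaved by kallikrein, held 3.13, 6.38, 5.7 and 4.42 CPM in control hearts and 22.6, 10.8, 31.5 and 17.7 CPM in EAM hearts. The groups did not overlap and the log2 fold change was 2.11 (SE 0.33, adjusted p = 3.2e-04). Orm1, a carrier of lipophilic molecules in plasma, stayed at the edge of detection, with 3 to 14 reads in the control hearts and 18 to 52 in the EAM hearts. Its hearts did not overlap, but its log2 fold change of 1.13 (SE 0.40, adjusted p = 0.0281) did not pass the FDR limit.

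**Figure D2:**
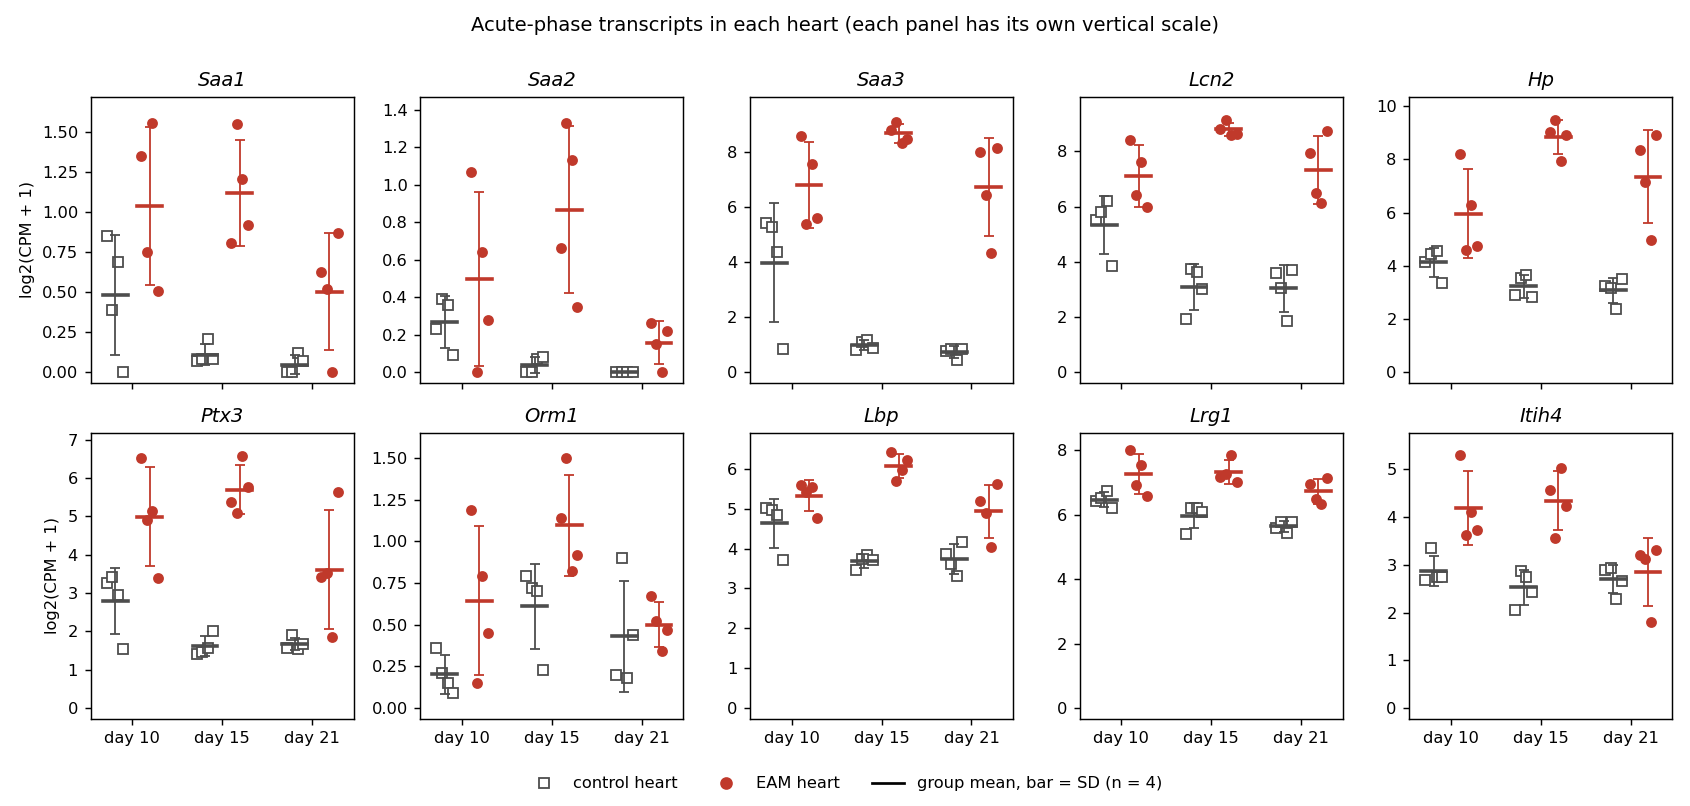
Level of each acute-phase transcript in each heart as log2(CPM + 1), with the mean and SD of each group of 4, for control hearts (open squares) and EAM hearts (filled circles) at D10, D15 and D21. At D15 the EAM hearts lie above the control hearts in all 10 panels, as was so for 34.6% of all genes tested. At D10 single EAM hearts stand high and single control hearts reach the level of the others.

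At D10 the values of most EAM hearts lay above those of the controls, but with a spread that left 0 members called by edgeR's quasi-likelihood test, as was the case for 0% of the 15029 genes tested. The edgeR likelihood ratio test, DESeq2 and limma-voom also called 0 members. Saa2 and Orm1 had too few reads for the fit. Of the 8 members tested, 6 had an unadjusted p under 0.05 with a higher EAM value, against 9.49% of all genes. All 8 log2 fold changes were above 0 with a median of 1.73, while the median over all genes was −0.01. At least a 2-fold higher mean was seen for 6 of the 8 and for 4.76% of all genes. Every EAM heart lay above every control heart for 2 of the 8, Hp and Itih4, and for 4.41% of all genes.

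The D10 values split within the EAM group in the same way for most members. Saa3 stood at 380, 40.1, 189 and 47.5 CPM in the 4 EAM hearts and at 41.9, 38, 19.6 and 0.793 CPM in the control hearts. EAM replicates 1 and 3 therefore exceeded the controls several times over, replicates 2 and 4 lay near the top of the control range, and control replicate 4 lay far below the other controls. The log2 fold change of Saa3 was 2.70 (SE 0.98, adjusted p = 0.328). Lcn2 followed the same pattern, with 339, 84.7, 197 and 62.4 CPM in EAM hearts and 45, 54.9, 72 and 13.3 CPM in control hearts (log2 fold change 1.87, SE 0.62, adjusted p = 0.328). Hp held 291, 23.2, 77.5 and 25.5 CPM in EAM hearts against 16.7, 20.9, 22.6 and 9.32 CPM in control hearts, so that its separation from the controls was narrow in EAM replicates 2 and 4. Its log2 fold change of 2.57 (SE 0.80, adjusted p = 0.328) went to 1.26 without EAM replicate 1.

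Ptx3 and Itih4 had the smallest unadjusted p of the members at D10. Ptx3 held 91.4, 29.1, 34.3 and 9.56 CPM in EAM hearts and 8.51, 9.79, 6.8 and 1.92 CPM in control hearts. Only EAM replicate 4 reached into the control range, and the log2 fold change was 2.58 (SE 0.68, adjusted p = 0.328). Itih4 held 38.8, 11.3, 16.2 and 12.3 CPM in EAM hearts and 5.43, 9.17, 5.73 and 5.69 CPM in control hearts, which gave a log2 fold change of 1.58 (SE 0.42, adjusted p = 0.328). Lrg1 (0.88, SE 0.28), Lbp (0.65, SE 0.29) and Saa1 (1.37, SE 0.66) had smaller log2 fold changes, with adjusted p of 0.328, 0.33 and 0.336. Saa2 had 39 reads in EAM and 15 in control hearts, and Orm1 had 51 and 11. The exact permutation tests of their D10 CPM gave p = 0.4 for Saa2 and p = 0.0857 for Orm1.

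Summed over the 10 members, the D10 EAM hearts held 1445, 352, 747 and 278 CPM and the D10 control hearts 235, 254, 261 and 115 CPM. EAM replicate 1 was the highest of its group for 9 of the 10 members, and replicates 2 and 4 shared the lowest places, 5 each. Replicate 1 also had the most Ptprc, the gene of the leucocyte antigen CD45, at 194 CPM against 27.7, 56.7 and 41.7 CPM in replicates 2 to 4. Without replicate 1 the log2 fold changes at D10 stayed above 0, with values of 1.86 for Saa3, 1.30 for Lcn2, 1.81 for Ptx3 and 1.01 for Itih4.

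**Figure D3:**
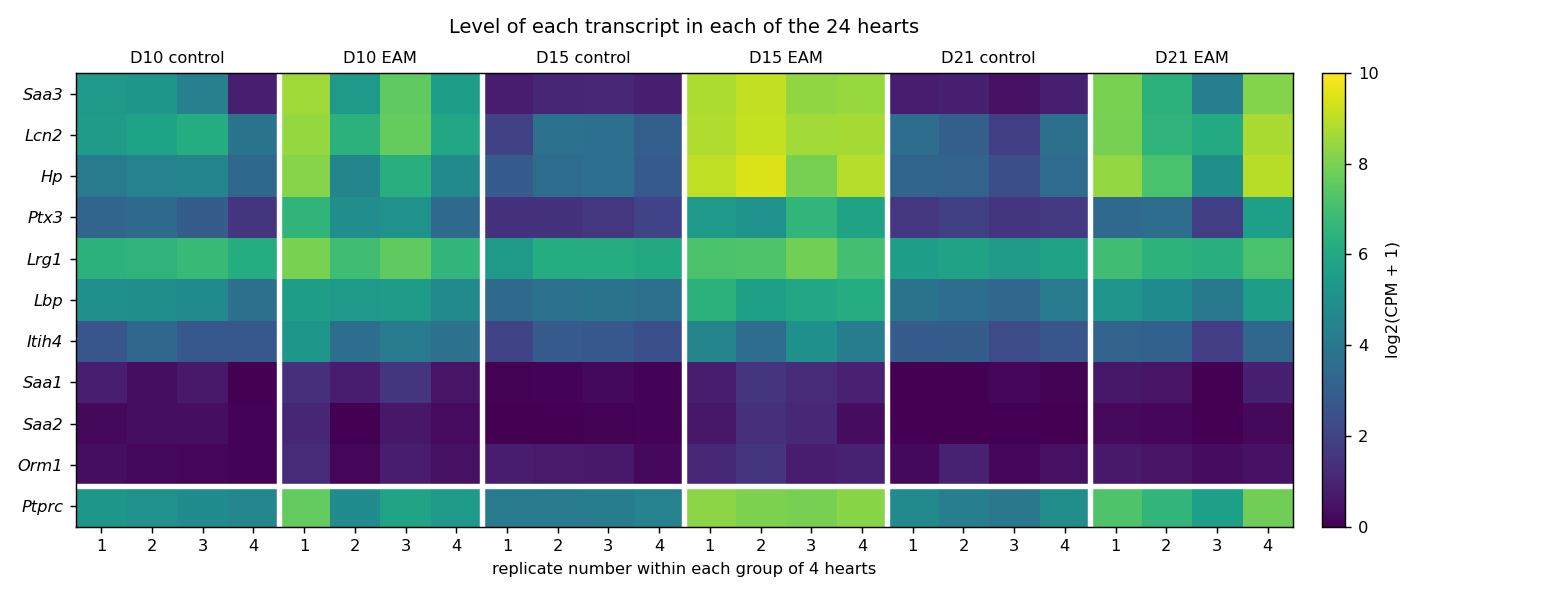
Level of each acute-phase transcript and of Ptprc (bottom row) in each of the 24 hearts, as log2(CPM + 1) by colour, with hearts in the order of their replicate number in each group. EAM replicates 1 and 3 stand out at D10, and EAM replicate 3 is the lowest for all 10 members at D21.

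The difference between the EAM effect at D15 and that at D10 was tested in a fit of all 24 hearts, in which all 10 members had enough reads. Saa3, Lcn2 and Lbp were called, 3 of 10, where 5.30% of the 16318 genes were called higher. The log2 fold change grew by 6.0 for Saa3 (SE 1.27, adjusted p = 0.0021), by 3.85 for Lcn2 (SE 0.89, adjusted p = 0.00283) and by 1.84 for Lbp (SE 0.42, adjusted p = 0.00279). These differences hold the levels of the D10 control hearts as well as those of the EAM hearts. Hp, with a difference of 3.23 (SE 1.01, adjusted p = 0.0141), Saa2 with 3.54 (SE 1.43, adjusted p = 0.0457), Saa1 with 2.41 (SE 1.0, adjusted p = 0.0483) and Ptx3 with 2.12 (SE 0.98, adjusted p = 0.0814) did not pass. Without D10 EAM replicate 1, Hp and Saa2 passed as well, which made 5, but Saa2, with 0 to 6 reads in each control heart, entered the fit only through EAM hearts. Lrg1 and Itih4 each had a difference of 0.48, with SE of 0.37 and 0.57, and the one of Orm1 was −0.91 (SE 0.89).

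At D21, 7 members could be tested and 4 were called higher, Saa3, Hp, Lcn2 and Lrg1, against 4.30% of the 15266 genes tested. The same 4 had every EAM heart above every control heart, as did 17.8% of all genes. Saa3 held 254, 84.9, 18.9 and 284 CPM in the 4 EAM hearts and 0.712, 0.817, 0.35 and 0.82 CPM in the control hearts. Even the lowest EAM heart was above 20 times the highest control heart, and the log2 fold change was 7.93 (SE 0.97, 245-fold, adjusted p = 0.00408). Hp held 328, 140, 30.6 and 488 CPM in EAM hearts and 8.39, 7.97, 4.25 and 10.4 CPM in control hearts (log2 fold change 5.04, SE 0.81, adjusted p = 0.00617). Lcn2 held 245, 89, 69.3 and 425 CPM against 11, 7.25, 2.58 and 11.9 CPM (log2 fold change 4.70, SE 0.74, adjusted p = 0.00584). Lrg1, with 122, 88, 79 and 139 CPM against 46.8, 53.9, 41.8 and 53.4 CPM, had the smallest change of the 4 and the smallest error (log2 fold change 1.16, SE 0.20, adjusted p = 0.00689).

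Ptx3, Lbp and Itih4 did not pass at D21. Ptx3 held 9.81, 10.5, 2.61 and 48.7 CPM in EAM hearts against 1.98, 2.74, 1.88 and 2.2 CPM, so that replicate 3 fell inside the control range and replicate 4 stood well above the rest (log2 fold change 3.07, SE 0.80, adjusted p = 0.0223). Lbp held 35.7, 28.5, 15.6 and 47.8 CPM against 13.5, 11.3, 8.84 and 17 CPM, with the same heart inside the control range (log2 fold change 1.37, SE 0.34, adjusted p = 0.0194). Itih4, at 8.18, 7.68, 2.47 and 8.89 CPM against 6.46, 6.63, 3.9 and 5.38 CPM, had the lowest heart of all 8 in the EAM group (log2 fold change 0.32, SE 0.36, adjusted p = 0.503). Saa1, Saa2 and Orm1 had too few reads for the fit. Saa1 had 34 reads in EAM and 3 in control hearts, a ratio of levels of 13.1 (95% counting interval 4.12 to 66.6, exact permutation p = 0.143). Saa2 had 9 reads in EAM hearts, 0 of them in replicate 3, and 0 in control hearts (exact permutation p = 0.143). Set against a floor of 3 reads over the control group, its EAM level was 3.47-fold higher, a value that leaves out the counting error of the 9 reads. Orm1 had 31 reads in each group.

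The D21 calls depended on single hearts. Without any one of the 4 control hearts, or without EAM replicate 1, 0 members were called, and without EAM replicate 2 only Saa3 was. The calls over all genes moved in the same way, with 0 to 5 genes called higher without one of those 5 hearts and 19 without EAM replicate 2. Without EAM replicate 3, which had the lowest level of all 10 members, 6 members were called (Ptx3 and Lbp were added), and without replicate 4 there were 3. The share of all genes called without replicate 3 or 4 is not given here, so the 6 and the 3 have nothing to be set against. The log2 fold changes themselves moved less, between 7.51 and 8.29 for Saa3, 4.46 and 5.39 for Hp, 4.08 and 4.98 for Lcn2, and 1.0 and 1.27 for Lrg1. limma-voom called 0 members at D21, and the fit of all 24 hearts called 7, likewise without a share of all genes beside them.

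**Figure D4:**
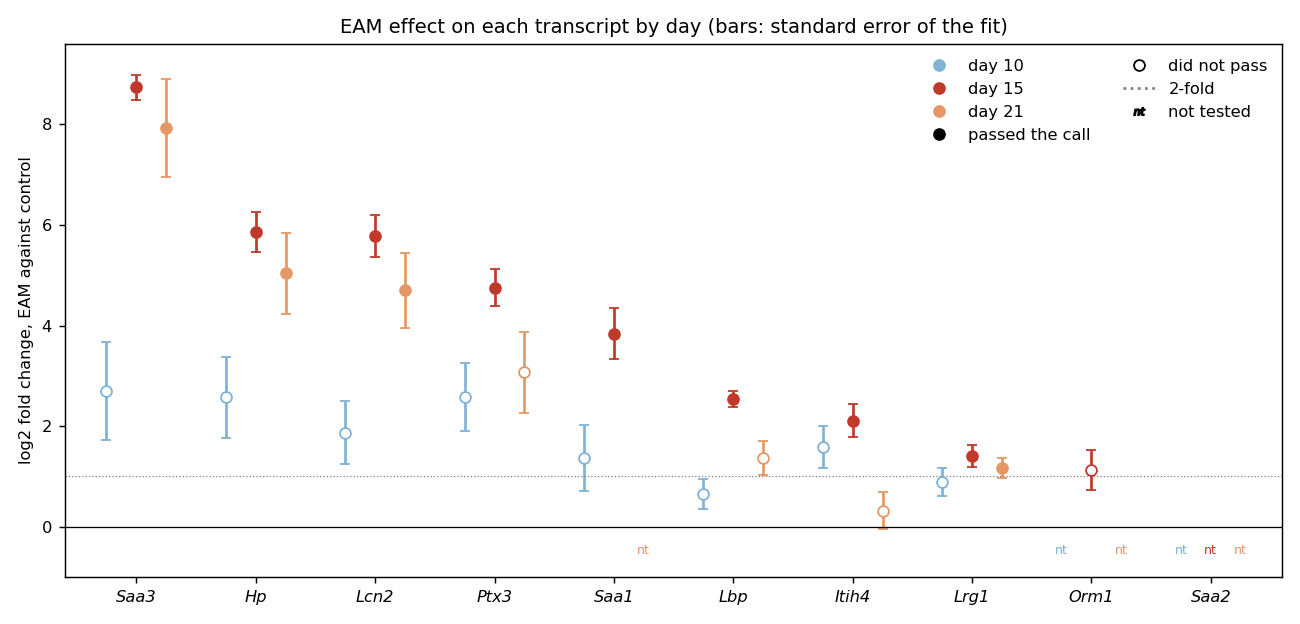
Log2 fold change of EAM against control hearts (vertical axis) with its standard error for each member at D10, D15 and D21, from the fits of 8 hearts each. Filled points passed the limits, open points did not, "nt" marks a member with too few reads for the test, and the dotted line is a 2-fold change.

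Between D15 and D21 the fitted difference of the EAM effect was below 0 for all 10 members in the fit of all 24 hearts, as it was for 50.1% of all genes. For Saa1 and Saa2, with few or 0 control reads, its sign turned when certain single hearts were left out (−0.81 to 0.58 and −0.82 to 0.03). By edgeR's quasi-likelihood test 0 of the 10 were called lower, as were 0.968% of all genes, and 2 of the 10 had an unadjusted p under 0.05 with a lower value, against 17.4% of all genes. The edgeR likelihood ratio test, DESeq2 and limma-voom also called 0. Those 2 were Itih4 (−1.78, SE 0.58, adjusted p = 0.0272) and Lbp (−1.16, SE 0.42, adjusted p = 0.0449), and without D10 EAM replicate 1 Itih4 was called. For Saa3 the difference was −0.81 (SE 1.54), for Hp −0.82 (SE 1.0), for Lcn2 −1.07 (SE 0.88) and for Lrg1 −0.24 (SE 0.37), each within about 1 SE or little more of 0. Since the D21 EAM libraries carry their own code, time and library code cannot be told apart in these differences.

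The D21 EAM hearts kept 1 order for most members. Summed over the 10 members they held 1004, 450, 219 and 1443 CPM for replicates 1 to 4, and Ptprc stood at 149, 96.3, 48.9 and 229 CPM. Replicate 4 was the highest for 8 of the 10 members and replicate 3 the lowest for all 10. At D15 no such order was seen. There replicate 2 was the highest for 6 members and the lowest for 3, replicate 3 was the highest for 3 (Ptx3, Itih4 and Lrg1) and the lowest for 4, and the summed level lay between 1379 and 2064 CPM. Ptprc varied little among the D15 EAM hearts, between 244 and 306 CPM, and held 16.5 to 20.7 CPM in the D15 control hearts. Its log2 fold change was 3.98 at D15 (SE 0.12, 15.8-fold, adjusted p = 1.4e-08) and 2.58 at D21 (SE 0.46, adjusted p = 0.00749), both called. At D10 it was 1.35 (SE 0.56, adjusted p = 0.328).

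Among the control hearts, 9 of the 10 members had a fitted value below that of D10 at D15, as had 8718 of 16318 genes, and 9 at D21, as had 8240 genes. None of these was called by the main test. Saa3 had 733, 741, 349 and 12 reads in the 4 D10 control hearts and 8 to 24 reads in all 8 later control hearts. Control replicate 4 at D10 thus resembled the later controls while the other 3 did not, and that heart was the lowest of its group for 9 of the 10 members. Against D10, the log2 fold change of Saa3 was −4.67 at D15 (SE 1.01, adjusted p = 0.0577) and −5.22 at D21 (SE 1.05, adjusted p = 0.0163). Lcn2 held 13.3 to 72 CPM in the D10 control hearts and 2.58 to 12.3 CPM in the later ones, with no overlap. Its log2 fold changes were −2.46 (SE 0.65, adjusted p = 0.207) and −2.51 (SE 0.65, adjusted p = 0.0607). Saa2 had 15 reads in the D10 control hearts together, 2 at D15 and 0 at D21. Its lowest D10 control heart had 1 read, as had the highest D15 control hearts, so the reads of these days were not apart.

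By edgeR's quasi-likelihood test 0 of the 10 members were called lower at D15 than at D10 among control hearts, as were 0.0735% of all genes, and 0 at D21, as were 0.116%. At an unadjusted p under 0.05, 5 of 10 were lower at D15 against 3.21% of all genes, and 7 of 10 at D21 against 4.77%. The call of Saa3 depended on the test. The edgeR likelihood ratio test and DESeq2 called it lower at both days, and Lcn2 at D21, while limma-voom called neither. A fit of the 12 control hearts alone, chosen after seeing the data, called Saa3 lower at D21 (adjusted p = 0.00374), and so did the fit of all hearts without D10 control replicate 4 or without D21 EAM replicate 3. Lbp (−1.09 and −1.0), Ptx3 (−1.70 and −1.63) and Lrg1 (−0.48 and −0.85) had lower fitted values at both later days, none of them called. Orm1 had higher fitted values instead, at 1.77 and 1.22, also not called.

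Markers of other cells moved with these levels, and their part in the results was not tested. The 13 neutrophil markers, among them S100a9, S100a8, Csf3r and Mmp9, summed to 154 to 298 CPM in D10 control hearts, 23.2 to 103 in D15 control hearts and 15.9 to 139 in D21 control hearts. In EAM hearts they summed to 214 to 991 CPM at D10, 737 to 1368 at D15 and 148 to 515 at D21. None of the 12 tested was called at D10, all 13 were called higher at D15 and 1 of 12 (Csf3r) at D21, against 18.1% and 4.30% of all genes. Elane and Mpo, with at most 2 and 7 reads in a D15 control heart, entered the D15 fit only through EAM hearts. Ltf and Ngp, genes of neutrophil granules, were detected in all 24 hearts, while Elane was at 0 reads in 5 and Mpo in 1. The 9 monocyte and macrophage markers summed to 395 to 1043 CPM in control hearts of all days and to 688 to 2964 CPM in D10, 3309 to 4553 CPM in D15 and 1167 to 4003 CPM in D21 EAM hearts. At D10 0 of 9 were called, at D15 9 of 9 were called higher and at D21 7 of 9, with the same shares of all genes.

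Hepatocyte markers were uneven in these hearts. Ahsg, the gene of fetuin A, had 46 to 605 reads, Serpina1b 22 to 106 and Cyp2e1 3 to 423 in each heart. Alb, the albumin gene, was at 0 reads in 13 of 24 hearts and reached 11 reads at most, Apob reached 3 reads and Fgb 2. The 11 hepatocyte markers summed to 16.7 to 44.9 CPM in control hearts, most of it from Ahsg, Cyp2e1 and Serpina1b. In EAM hearts the sum was 33.6 to 42.8 CPM at D10, above all 4 D10 controls, 32 to 43.7 CPM at D15, inside the control range, and 5.02 to 17.1 CPM at D21, below all 4 D21 controls. No hepatocyte marker was called higher at any day, and 1 of 3 tested (Serpina1b) was called lower at D15, where 12.9% of all genes were.

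Other resident cells moved in different directions. The 9 adipocyte markers summed to 495 to 603 CPM in D15 control hearts and 243 to 358 CPM in D15 EAM hearts, most of it from Fabp4, which endothelial cells also express. Fabp4 went from 444 ± 39.6 to 216 ± 42.5 CPM (SD, n = 4 each) and was the only one of 8 tested that was called, where 12.9% of all genes were called lower. Of the 8, 4 had a log2 fold change above 0 and 4 below, and Adipoq held 4.24 ± 2.12 and 5.03 ± 1.48 CPM. The 8 cardiomyocyte markers summed to 29904 to 34740 CPM in D15 control and 8401 to 20840 CPM in D15 EAM hearts, of which replicate 3 held the most, and 3 of 8 were called lower, against 12.9% of all genes. The 7 fibroblast markers summed to 1529 to 1814 CPM in D15 control and 4615 to 10930 CPM in D15 EAM hearts, lowest in replicate 3, and 3 of 7 were called higher, against 18.1% of all genes. Most of the rise came from the collagen genes Col1a1 (2459 to 4149 reads in control and 39955 to 149668 in EAM hearts) and Col1a2 (3425 to 5572 and 32568 to 116208). Tcf21 had 225 to 427 and 242 to 345 reads. Of the 7 log2 fold changes, 6 were above 0 and 1 below. The 6 endothelial markers summed to 1078 to 1397 and 757 to 887 CPM, with 1 of 6 called lower, against 12.9% of all genes. At D21, 3 of 7 fibroblast markers were called higher, against 4.30% of all genes, and 3 of 8 adipocyte markers lower, against 1.30%. Those 3, Adipoq, Plin1 and Retn, entered that fit through control hearts, with at most 11 reads in a D21 EAM heart. At D10 none of any of these lists was called.

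**Figure D5:**
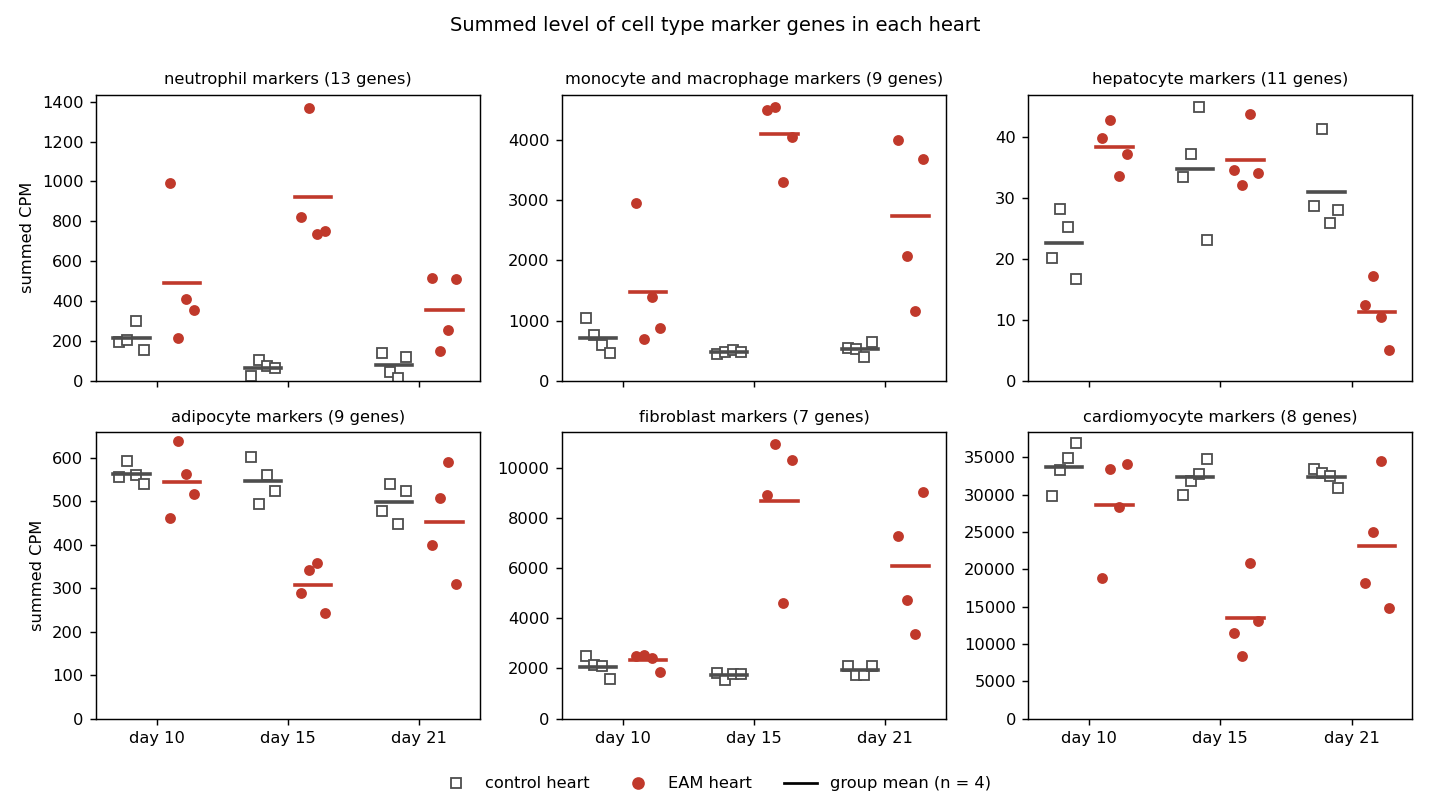
Summed CPM of marker genes of 6 cell types in each control heart (open squares) and EAM heart (filled circles) at D10, D15 and D21, with the mean of each group of 4 hearts. Hepatocyte markers stay under 45 CPM in sum, while the sums of neutrophil, of monocyte and macrophage and of fibroblast markers are higher in D15 EAM hearts than in D15 control hearts.

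Other acute-phase reactants also differed at D15. Of 28 listed, 27 had an identifier and 16 could be tested. Of the 16, 12 were called higher on that day, against 18.1% of all genes. Among the 12 were Hpx and Serpina3m, which had at most 8 reads in a D15 control heart and so entered the fit only through EAM hearts. At D10 0 of 14 were called, with 9 at an unadjusted p under 0.05 and a higher value, against 9.49% of all genes. At D21 6 of 15 were called higher, against 4.30% of all genes, and 1 lower, against 1.30%. Serpina3m was among the 6, and with 3 to 11 reads in its D21 control hearts it again entered through EAM hearts. C3, the central complement protein, held 452 ± 123 CPM in D15 control and 2053 ± 420 CPM in D15 EAM hearts (SD, n = 4), a log2 fold change of 2.22 (adjusted p = 3.0e-05). Serpina3n, a serine protease inhibitor, went from 31.9 ± 10.8 to 567 ± 35.8 CPM (log2 fold change 4.19, adjusted p = 1.1e-06). The metal-binding Mt1 went from 104 ± 20.6 to 251 ± 42.2 CPM (1.31) and ceruloplasmin (Cp) from 116 ± 12.9 to 264 ± 24.5 CPM (1.23). Serpina3n and Mt1 were also called higher at D21, with log2 fold changes of 3.60 and 1.52, whereas those of C3 (1.19, adjusted p = 0.022) and Cp (0.47) did not pass. The one lower at D21 was Hamp, the iron regulator hepcidin, named after its values were seen. It entered the D21 fit only through control hearts, since its EAM hearts had 1 to 6 reads. Its level was 13.6 ± 3.83 CPM in control and 0.189 ± 0.115 CPM in EAM hearts (log2 fold change −6.06, adjusted p = 4.0e-04). At D10 Hamp held 2.35 ± 0.93 and 19.1 ± 15.1 CPM (3.01, adjusted p = 0.318), and at D15 its log2 fold change was −0.05 (adjusted p = 0.95). In the comparison of D21 with D10 control hearts, Serpina3n was called lower (−2.43, adjusted p = 0.00782), as was Mt2 (−2.58, adjusted p = 0.00929), named for that call.

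The list of inducers holds cytokines, their receptors, transcription factors and feedback genes of the response, and 20 of 23 tested were called higher at D15, against 18.1% of all genes. Among the 20 were Il6, Il1a, Osm, Il11 and Il17a, which had at most 7 reads in a D15 control heart, entered the fit only through EAM hearts and so had to differ to be tested. At D10 it was 0 of 21, with 15 at an unadjusted p under 0.05 and a higher value, against 9.49% of all genes. Il1a, Osm and Il6, which are among the 15, entered that fit through EAM hearts as well. At D21 it was 6 of 21, against 4.30%. Il6 held 0.231 ± 0.0818 CPM in D15 control and 45.4 ± 18.6 CPM in D15 EAM hearts, a log2 fold change of 7.60 (adjusted p = 4.1e-07). Il1b went from 2.5 ± 0.224 to 151 ± 35.1 CPM (5.95, adjusted p = 2.5e-08), Osm from 0.211 ± 0.136 to 6.75 ± 0.386 CPM (5.02) and Tnf from 1.58 ± 0.327 to 13.2 ± 1.59 CPM (3.09). Il1b (4.04) and Osm (3.47) were called at D21 too, Osm again with at most 7 reads in a control heart, and Il6 (4.84, adjusted p = 0.016) and Tnf (1.66, adjusted p = 0.0297) were not. Among the factors and feedback genes, Socs3, a STAT3 target that limits cytokine signalling, changed most, from 9.48 ± 0.555 to 245 ± 35.9 CPM at D15 (4.73, adjusted p = 1.1e-08). Cebpb (2.74), Nfkbiz (2.28), Cebpd (1.48) and Nfkb1 (1.04) were called higher at D15 as well. Stat3 itself, with a log2 fold change of 0.79 (adjusted p = 5.0e-05), and the receptor chain Il6st, with 0.31 (adjusted p = 0.00955), stayed under the fold limit, and Tnfrsf1a was called (1.60).

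Receptors and partners of the 10 proteins were called in part. At D15, 7 of 14 tested were called higher, against 18.1% of all genes, and 1 lower, against 12.9%. At D10 it was 0 of 13, with 5 at an unadjusted p under 0.05 and a higher value, against 9.49% of all genes, and at D21 2 of 13 were called higher, against 4.30%. Fpr2, a receptor for serum amyloid A on phagocytes, went from 1.55 ± 0.65 to 97.1 ± 16.2 CPM at D15 (log2 fold change 6.02, adjusted p = 1.7e-07) and was called at D21 (4.16). Cd14 (3.63) and Tlr4 (1.46), which receive lipopolysaccharide from Lbp, were called higher at D15. Cd163, the macrophage receptor for haptoglobin bound to haemoglobin, was at 30.8 ± 5.5 CPM in D15 control and 44.5 ± 11.5 CPM in D15 EAM hearts (0.56, adjusted p = 0.0212) and at 31.8 ± 2.49 and 20.1 ± 2.31 CPM at D21 (−0.65, adjusted p = 0.00568), under the fold limit at both days. Its EAM effect differed between D21 and D15 (−1.20, adjusted p = 0.00229). Slc22a17, a receptor for lipocalin 2, held 4.24 ± 0.694 and 4.23 ± 0.304 CPM at D15 (0.03, adjusted p = 0.839). Eng, a partner of Lrg1 in TGF-beta signalling, held 265 ± 24.6 and 258 ± 27.5 CPM, and Acvrl1, its signalling receptor, had a log2 fold change of 0.52 (adjusted p = 8.8e-04) under the fold limit. Cd36 was the one called lower (−1.08, adjusted p = 3.0e-04), and Scarb1 (0.74) stayed under the fold limit.

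The genes with the profile most like each member over the 24 hearts were found among 16317 genes by the root mean square (RMS) difference of log2(CPM + 1) after centring, without regard to level. The closest to Saa3 was Lcn2, at an RMS difference of 1.08 against an RMS deviation of 3.21 for Saa3 itself, followed by Il1rn (1.14) and Cxcl5 (1.16). The closest to Lcn2 were Serpina3n (0.64), Mt2 (0.68) and Cxcl5 (0.71), with a deviation of 2.32 for Lcn2. For Hp they were Clec4d (0.38), Clec4n (0.41) and Timp1 (0.44), with a deviation of 2.34. Ptx3 had Ccl2 (0.48), Socs3 (0.49) and Cxcl1 (0.50) as neighbours, with a deviation of 1.75. Lbp had Icam1 (0.25), Bcl3 (0.27) and C1ra (0.30), Lrg1 had Mt1 (0.21), Fas (0.25) and 1200007C13Rik (0.28), and Itih4 had Icam1 (0.39), Mpzl2 (0.43) and Gldc (0.46). Saa1 (Ankrd22, 0.21), Saa2 (Cxcr1, 0.16) and Orm1 (Car5b, 0.21) varied little on this scale, with deviations of 0.50, 0.38 and 0.37.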

How the data were processed

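Tissue from 24 hearts was sequenced as 75-base read pairs. The authors aligned the reads to GRCm38 with HISAT2 2.0.4, removed duplicates with Picard and deposited raw counts per Ensembl gene (annotation GRCm38.69) from featureCounts. Per the study's supplement, reads that fell at several loci or across several features were set apart, and those assigned to 1 gene were kept. The strand setting was not given in the sources used here. The per-sample and series tables differed in 0 cells. The 92 spike-in controls had 0 reads and were left out.

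The count tests ran in edgeR 4.0.16 under R 4.3.3 (quasi-likelihood test with the newer, non-legacy dispersion fit, TMM), with limma 3.58.1 and DESeq2 1.42.0 as alternatives. Tables and plots were made in Python 3.11.15 (scipy 1.17.1, numpy 2.4.6, pandas 2.3.3, matplotlib 3.10.9). A gene entered a fit if 4 or more of its samples held 10 or more reads, and it was called at an FDR under 0.01 and a fold change of 2 or more. Each day was fitted on its 8 hearts, and differences of effect and comparisons of controls on all 24. The scripts were tested on simulated data. Members with too few reads were compared by an exact two-sided permutation test of CPM. The level of a heart is its TMM-normalized CPM, and profiles used log2(CPM + 1). Exon lengths and positions came from the GENCODE M21 annotation of GRCm38, and upstream sequences from RefSeq.

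The members and the gene lists were chosen with earlier results of these data known. Named genes are the members, Ptprc, up to 4 tested genes per list with the highest mean CPM, 15 fixed inducers and partners, and 3 neighbours by profile per member, whatever way they moved. Exceptions are stated. The alternatives were other tests, limits, scalings, filters, a replicate block, a fit of all 24 hearts and leaving out each heart.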

Additional observations from a re-analysis of the deposited data

Results flagged for a closer look

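Among the 60 sets of 4 hearts (10 members in 6 groups), 6 held 1 heart far from the other 3 by Dixon's test on log2(CPM + 1), for which the critical ratio of gap to range is 0.829 with 4 samples. Chance alone flags about 1 in 20 sets. The ratios below are of the log2 values, and the CPM or reads beside them are levels. In D10 control hearts, replicate 4 was far below the others for Lbp (ratio 0.860, 12.1 CPM against 27.5 to 31.3 CPM), and replicate 2 was far above them for Itih4 (0.899, 9.17 CPM against 5.43 to 5.73 CPM). In D15 control hearts, replicate 1 was far below the others for Lrg1 (0.856, 40.9 CPM against 67.1 to 72.9 CPM). The remaining D15 control cases lie near the limit of detection, replicate 3 for Saa1 (0.930, 3 reads against 1 in each of the others) and replicate 4 for Orm1 (0.833, 3 reads against 11 to 14). In D21 EAM hearts, replicate 3 was far below the others for Itih4 (0.876, 2.47 CPM against 7.68 to 8.89 CPM).

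The EAM effect differed between D15 and D10 by the test of the difference itself for 3 of 10 members, where 5.30% of the 16318 genes were called higher. The differences were 6.0 for Saa3, 3.85 for Lcn2 and 1.84 for Lbp on the log2 scale, and each effect was larger at D15. Part of each difference lay in the control hearts, whose fitted levels were lower at D15 than at D10 (−4.67 for Saa3, −2.46 for Lcn2 and −1.09 for Lbp, none of them called).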

How the results depend on the processing

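The D10 count of called members was 0, and the D15 count stayed between 7 and 8, when any heart was left out. At D21 the count of 4 became 0 with limma-voom and 7 in the fit of all 24 hearts, and ranged from 0 to 6 when a heart was left out. The count of 3 for the difference between D15 and D10 became 6 at an FDR under 0.05 with no fold limit and ranged from 3 to 5 with a heart left out. For D21 against D15 the count of 0 became 2 at that limit (Itih4 and Lbp) and ranged from 0 to 1. For D15 against D10 control hearts it became 1 with the edgeR likelihood ratio test and 1 with DESeq2. For D21 against D10 control hearts it became 1 at an FDR under 0.05 with no fold limit, 2 with the likelihood ratio test, 2 with DESeq2 and 1 in the fit of the 12 control hearts, which was added after seeing the data, and ranged from 0 to 1 with a heart left out (1 without D10 control replicate 4 or D21 EAM replicate 3). The cause was not tested. Direction turned for fitted differences between D21 and D15 near 0 of members with few reads: Saa2 ranged from −0.82 to 0.03 with a heart left out (0.03 without D15 control replicate 1 and 0.01 without D15 EAM replicate 2), and Saa1 from −0.81 to 0.58 (0.58 without D21 control replicate 3 and 0.04 without D21 EAM replicate 3). Same-numbered EAM and control hearts did not deviate together in every pair (correlations from −0.0827 to 0.368 at D10, from −0.0955 to 0.0351 at D15, and from 0.0966 to 0.303 at D21), so the numbers were not taken as pairs. With the replicate block the counts were 0, 8 and 5 at D10, D15 and D21, the fifth being Lbp (log2 fold change 1.29, adjusted p = 0.00476), and 3, 0, 0 and 0 for the other comparisons. In all, 1706 of 1764 alternative values kept their direction and their side of the limits.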
